A study of Mus musculus with 33 samples.

Results

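*Oosp1*, *Oosp2*, *Oog2*, *Oog3* and *Oog4* are 5 genes named for their expression in the oocyte, and they were picked by name from the gene report of single mouse oocytes, which held 35321 genes after repeated entries were left out. The libraries came from 33 germinal vesicle (GV) oocytes of 3-week-old C57BL6/Babr females, with RNA separated from DNA in each cell before sequencing. The mice differed in *Nlrp5*, which encodes a component of the subcortical maternal complex, through a CRISPR-made deletion carried on both alleles (*Nlrp5* -/-), 1 allele (*Nlrp5* +/-) or neither (*Nlrp5* +/+). The *Nlrp5* -/- and *Nlrp5* +/- mice were littermates, whereas *Nlrp5* +/+ mice usually came from the originating colony, so that colony and genotype were in part the same split. Within each genotype the study placed oocytes by their transcriptome in the non-surrounded nucleolus (NSN) state or in the later, transcriptionally silent surrounded nucleolus (SN) state.

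There were 4 NSN and 6 SN oocytes from *Nlrp5* +/+ mice, 9 NSN and 7 SN from *Nlrp5* +/- mice, and 4 NSN and 2 SN from *Nlrp5* -/- mice. The remaining *Nlrp5* -/- oocyte, number 15, had no stage. The labels do not say which oocytes came from which mouse, so each combination of genotype and stage is treated as 1 sample. Levels are therefore given as means ± SD over oocytes, where the SD is the spread between cells, and no p-value is given. Levels are normalised read counts (counts divided by a size factor for each oocyte), and differences are log2 ratios of group means with a pseudocount of 1, except those with an offset for transcript length and GC content, which are differences of mean log2 values. A difference is called past the fold where its size on the log2 scale is at least 0.5, and 2 groups are called apart where every oocyte of one lies above every oocyte of the other.

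The *Oosp* genes encode small secreted proteins of the oocyte that are related to the placental protein PLAC1. The *Oog* genes, also called oogenesins, belong to the PRAME-like family, which encodes leucine-rich repeat proteins and sits in tandem clusters with many near-identical copies. In growing oocytes many such genes are switched on by FIGLA, a basic helix-loop-helix factor whose dimers bind the E-box CANNTG, and by NOBOX, a homeodomain factor that binds TAATTG. Transcripts made during growth are stored, because the SN oocyte no longer transcribes and the early embryo draws on maternal RNA.

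The 5 genes lay at 2 places in the genome (GRCm38, coordinates of the deposited report). *Oosp1* (ENSMUSG00000041857, chr19:11667460-11691150, minus strand) and *Oosp2* (ENSMUSG00000055895, chr19:11647279-11660559, minus strand) were neighbours on chromosome 19. *Oog2* (ENSMUSG00000066030, chr4:144190719-144196934, plus strand), *Oog3* (ENSMUSG00000050810, chr4:144157557-144162663, minus strand) and *Oog4* (ENSMUSG00000047799, chr4:143437164-143450324, minus strand) lay on chromosome 4. The 100 bases before each RefSeq start site (GRCm38.p6) are shown because the *Oog* stretches resemble each other there. The RefSeq start of *Oosp1* lay inside the gene as the deposited report places it, so that nearly all of its printed stretch falls within the reported gene, and that of *Oog3* lay a few bases inside. Each is printed 5′ to 3′ on the strand of its gene, and capitals mark CANNTG and, on the printed strand, the TATA-box letters TATATA or TATAAA.
Oosp1, chr19:11691052-11691151, minus strand: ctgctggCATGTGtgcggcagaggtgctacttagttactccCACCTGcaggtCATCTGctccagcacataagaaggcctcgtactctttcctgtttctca
Oosp2, chr19:11660560-11660659, minus strand: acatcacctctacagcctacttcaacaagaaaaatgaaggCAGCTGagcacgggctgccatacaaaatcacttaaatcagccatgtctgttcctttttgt
Oog2, chr4:144190617-144190716, plus strand: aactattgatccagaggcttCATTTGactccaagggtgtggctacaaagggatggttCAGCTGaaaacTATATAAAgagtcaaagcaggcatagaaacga
Oog3, chr4:144162652-144162751, minus strand: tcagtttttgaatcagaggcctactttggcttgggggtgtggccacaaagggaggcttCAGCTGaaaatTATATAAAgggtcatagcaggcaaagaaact
Oog4, chr4:143450325-143450424, minus strand: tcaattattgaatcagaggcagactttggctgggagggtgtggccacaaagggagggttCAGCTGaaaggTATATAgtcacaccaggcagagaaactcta

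The 3 *Oog* stretches shared a motif pair. Each held CAGCTG, which begins 43 bases before the start in *Oog2*, 42 in *Oog3* and 41 in *Oog4*, then 5 bases, then TATATA. In *Oog2* and *Oog3* TATAAA overlaps TATATA. Over the 300 bases from 250 before to 50 after the start, *Oog2* and *Oog4* were 76.7% identical and *Oog3* and *Oog4* 73.3% (with *Oog2* and *Oog3* less alike than either pair), against 52.2% for *Oosp1* and *Oosp2* and 51.7% for the unrelated pair *Oosp1* and *Oog4*. *Oosp2* also held CAGCTG, beginning 60 bases before the start, and *Oosp1* held 3 other E-boxes in the printed stretch and no CAGCTG. Searched on both strands of the 300 bases, CANNTG was present in 72.3% of 32851 mouse promoters, CAGCTG in 16.3%, TATAAA in 13.6%, TATATA in 5.7% and TAATTG in 8.0%. TAATTG occurred in *Oog3* and *Oog4*, in both on the reverse strand.

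CAGCTG, 5 bases and TATATA in this order, on the strand of the gene, occurred in 8 of the 32851 promoters, or 0.024%. They were *Oog1*, *Oog2*, *Oog3*, *Oog4*, *Pramel23*, *Pramel26*, *Pramel32* and *Gm2042*, a gene that shares transcript stretches with *Oog1*. This pair of motifs was noticed in the *Oog* sequences first and counted afterwards. Near-identical copies share their promoters, so these genes are not independent of each other, and the letters do not show that a factor binds.

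All 5 genes were among the more abundant transcripts of the oocyte, and each had counts in 33 of 33 oocytes. By mean normalised count over all oocytes, *Oosp1* (11519 ± 4094) was 48th of 27209 genes with a count, *Oog3* (11463 ± 2971) was 50th, *Oog4* (9508 ± 3115) was 69th, *Oosp2* (4758.0 ± 1776) was 173rd and *Oog2* (3308 ± 896) was 322nd. Together they took between 0.209% and 0.78% of the counts of an oocyte, with a median of 0.53%. *Nlrp5* itself, with a mean of 8637, ranked 81st. The highest oocyte exceeded the lowest by a ratio of 4.88 for *Oosp1*, 5.9 for *Oosp2*, 5.3 for *Oog2*, 4.13 for *Oog3* and 6.52 for *Oog4*. Counting error was small beside this spread, since the lowest count of any of the 5 genes in an oocyte was 1156, with an exact Poisson 95% interval from 1090 to 1225.

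Compared per kilobase of transcript, the order was *Oosp1*, *Oosp2*, *Oog3*, *Oog4* and *Oog2*. Transcripts were short for both *Oosp* genes, at 972 bases for *Oosp1* and 678 for *Oosp2*, and longer for *Oog2* (1515), *Oog3* (1865) and *Oog4* (1838). *Oosp1* reached 11851 ± 4212 normalised counts per kilobase, *Oosp2* 7018 ± 2620, *Oog3* 6146 ± 1593, *Oog4* 5173 ± 1695 and *Oog2* 2183 ± 592. *Oosp1* exceeded *Oosp2* and *Oog4* exceeded *Oog2* in 33 of 33 oocytes. *Oosp2* exceeded *Oog3* in only 20 of 33, and *Oog3* exceeded *Oog4* in 26 of 33, so the middle of the order varied between cells. Part of the *Oog* values may be shared with copies. Of the 75-base stretches of the transcript, 37.752% in *Oog2* (shared with *Pramel26* and *Gm7201*) and 13.624% in *Oog3* (shared with *Gm4350*, not among the genes of the report) also occurred in another gene, against 0% in *Oosp1*, *Oosp2* and *Oog4*. How such reads were counted is not stated, and the levels of *Oog2* and *Oog3* are uncertain to that extent.

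Depth and identity of the libraries were as follows. Counts on genes ranged from 4223595 to 15573360 per oocyte, and no pair of oocytes of a genotype agreed within sampling noise. *Nlrp5* lay between 1362 and 2556 normalised counts in the 7 *Nlrp5* -/- oocytes and between 10114 and 29131 in the 10 *Nlrp5* +/+ oocytes. In the 16 *Nlrp5* +/- oocytes it lay between 5062 and 13472. The targeted transcript thus set *Nlrp5* -/- oocytes apart from all others, whereas *Nlrp5* +/- and *Nlrp5* +/+ oocytes overlapped. All 10 oocyte markers were measured, with a mean of 56836 for *Gdf9*, an oocyte growth factor, although *Sohlh1* had no count in 22 of 33 oocytes. The 16 granulosa markers summed to 2074–3550 in *Nlrp5* +/+ NSN oocytes, 2482–3315 in *Nlrp5* +/+ SN, 2341–3245 in *Nlrp5* +/- NSN, 2480–3298 in *Nlrp5* +/- SN, 2221–4808 in *Nlrp5* -/- NSN and 2531–3253 in *Nlrp5* -/- SN. A mean of 1849 of this was *Serpine2*. *Cyp19a1* (402), *Nr5a2* (306) and *Kitl* (93.2) also had counts in every oocyte, *Inha* (162) was at 0 in 3, and the granulosa-defining *Amh* and *Foxl2* were at 0 in 20 and 18 of 33 oocytes. Theca and interstitial markers (6 genes) summed to 23.6–49.0 in *Nlrp5* +/+ oocytes, 52.8–2429 in *Nlrp5* +/- and 89.7–1551 in staged *Nlrp5* -/- oocytes. Stroma, vessel and blood markers (8 genes, mostly *Pecam1* with a mean of 509) summed to 342–517 in *Nlrp5* +/+ NSN oocytes and to 644–766 in *Nlrp5* -/- NSN oocytes, with the groups apart. Oocyte 15 was highest on all 3 lists, at 10299.6, 5094 and 1683.

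**Figure D1:**
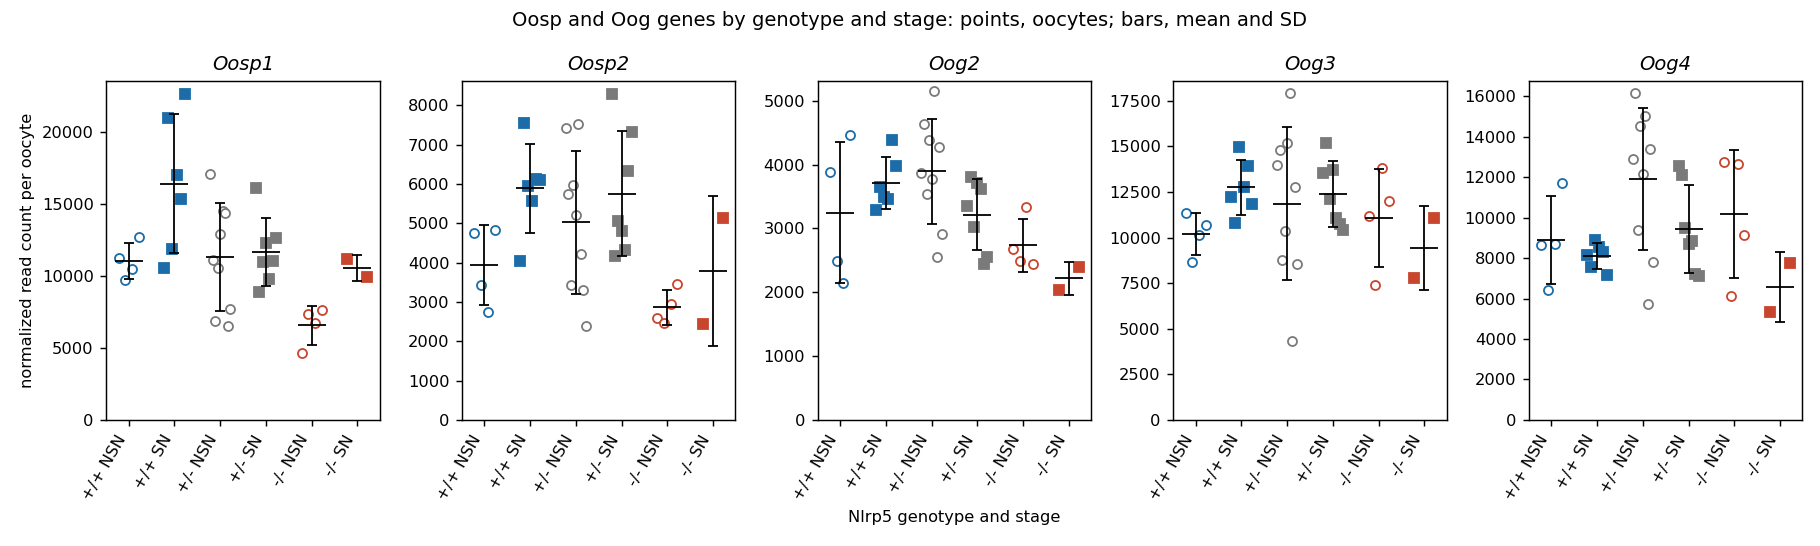
Normalised counts of the 5 genes in each oocyte (points, y axis) by genotype and stage (x axis, open circles for NSN and squares for SN), with the mean and SD of each group drawn as a line and whiskers. *Oosp1* is highest in *Nlrp5* +/+ SN oocytes (mean 16379.9) and lowest in *Nlrp5* -/- NSN oocytes (mean 6576), whereas the groups of *Oog3* overlap widely.

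From the NSN to the SN state, *Oosp1*, *Oosp2* and *Oog3* had higher means in *Nlrp5* +/+ oocytes, with the SN and NSN groups of each overlapping, and *Oog2* and *Oog4* differed by less than their pooled SD over oocytes. *Oosp1* was among the genes by which the study told SN from NSN oocytes, and *Oosp3*, its relative, was another, so for them the direction was used in the staging and is given as a description. The other 4 genes were not on that marker list, but their values came from the same libraries that were staged.

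*Oosp1* was 11241, 12699, 10486 and 9721 in the 4 *Nlrp5* +/+ NSN oocytes, and its lowest, median and highest values in the 6 SN oocytes were 10547, 16154 and 22621. The highest NSN values reached into the lower SN values. The difference was 0.57 (mean 11037 ± 1270 against 16379.9 ± 4820). *Oosp2* was 4752, 4816, 2755 and 3422 in NSN oocytes and 4042, 6020 and 7548 (lowest, median, highest) in SN oocytes, a difference of 0.58 with overlapping groups. These 2 of the 5 genes were past the fold upwards, where 13.9% of 13576 genes were, and none was past it downwards, where 20.0% were. Both calls were lost when counts were scaled by their total (0.47 for *Oosp1* and 0.48 for *Oosp2*), and single oocytes also decided them: *Oosp1* was 0.46 without oocyte 80 and 0.49 without oocyte 72, and *Oosp2* was 0.44 without oocyte 79. No gene of the 5 had its stages apart, against 9.80% of all genes.

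*Oog3* was 11348, 10681, 10163 and 8652 in *Nlrp5* +/+ NSN oocytes and 10823, 12476 and 14944 (lowest, median, highest) in SN, a difference of 0.32, with 5 of 6 SN oocytes above all NSN oocytes. *Oog2* was 3884, 4462, 2139 and 2497 in NSN and 3285, 3569 and 4391 in SN, a difference of 0.19. *Oog4* was 8635, 11734, 8698 and 6442 in NSN and 7182, 8249 and 8882 in SN, a difference of -0.13. For *Oog2* and *Oog4* the SN values lay inside the range of the NSN values, and the SD over SN oocytes was smaller (409 against 1106 for *Oog2*, 632 against 2174 for *Oog4*). The median of the 5 genes was 0.32, and that of all genes 0.03.

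In *Nlrp5* +/- oocytes the stages differed less. *Oosp1* ran from 6499 through a median of 11072 to 17091 in the 9 NSN oocytes and from 8850.0 through 11020.0 to 16113 in the 7 SN oocytes, a difference of 0.05. *Oosp2* ran from 2383 through 5210.2 to 7530.4 in NSN and from 4171 through 5066 to 8295 in SN, a difference of 0.20. The differences were -0.28 for *Oog2*, 0.06 for *Oog3* and -0.34 for *Oog4*, whose mean was 11909.9 ± 3525 in NSN and 9439 ± 2163 in SN. None of the 5 was past the fold in either direction, where 28.7% of 13613 genes were, and none had its stages apart, where 1.34% did. With medians over oocytes *Oog4* was past the fold, at -0.54.

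In *Nlrp5* -/- oocytes *Oosp1* was higher and *Oog2* and *Oog4* were lower in the SN state, on only 2 SN oocytes. *Oosp1* was 4638, 7339, 6710.3 and 7618 in NSN oocytes and 11180.1 and 9921 in SN oocytes, so that both SN oocytes lay above all NSN oocytes (difference 0.68). *Oog2* was 2676, 2485, 3335 and 2441 in NSN and 2032 and 2402 in SN, with both SN oocytes below all NSN oocytes (difference -0.30). *Oog4* was 12758, 6140.1, 12661 and 9131 in NSN and 5334 and 7779.9 in SN, a difference of -0.63 with overlapping groups. *Oosp2* differed by 0.41 and *Oog3* by -0.23. The SN oocytes disagreed on *Oosp2*, at 2442 in oocyte 7 and 5140.1 in oocyte 31, and the difference was 0.85 without oocyte 7 and -0.23 without oocyte 31. Without oocyte 7 the *Oog4* difference was -0.39, with pooled sums also -0.39, and with the offset for transcript length and GC content (given further on) -0.43, so it was then not past the fold. The *Oog2* difference was -0.09 with that offset. Past the fold were 1 of the 5 genes upwards and 1 downwards, where 14.3% and 23.8% of 13840 genes were. Apart upwards was 1 gene against 9.47% of all genes, and apart downwards 1 gene against 10.8%.

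**Figure D2:**
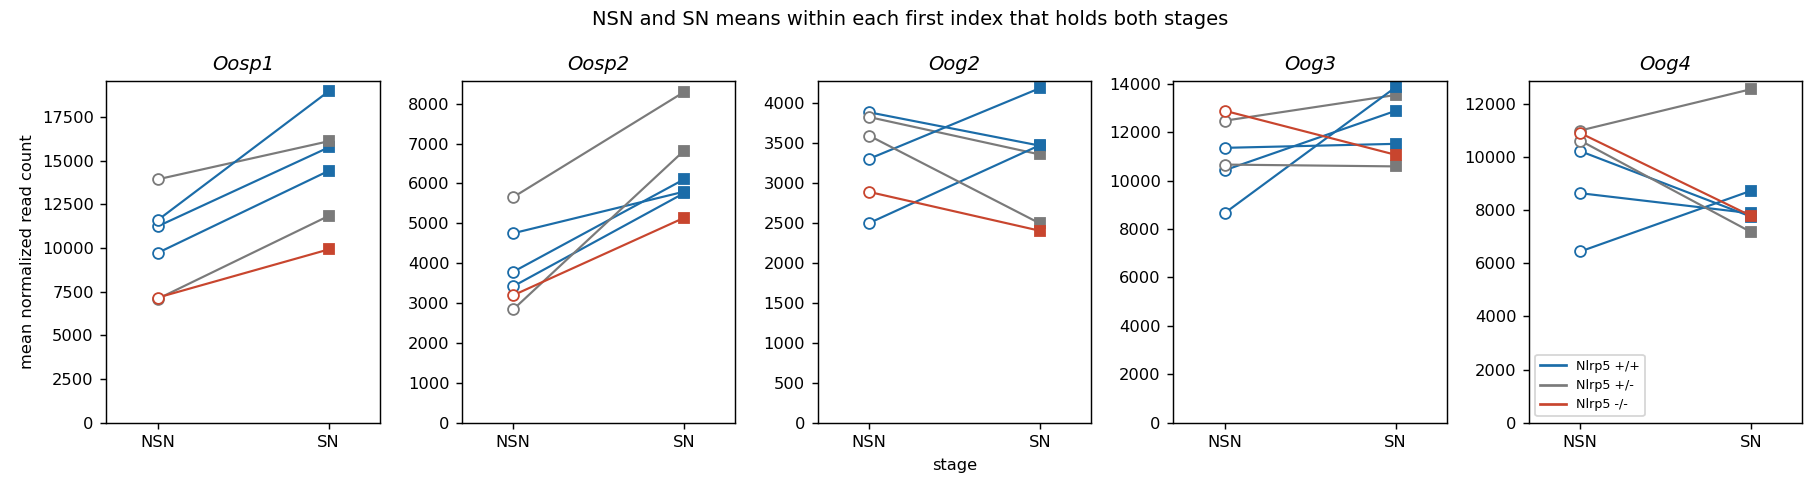
Mean normalised counts of the 5 genes (y axis) in NSN and SN oocytes (x axis), with a line for each of the 6 library indexes that hold both stages, coloured by genotype. The lines of *Oosp1*, which was used in the staging, and of *Oosp2* go up in 6 of 6 indexes, while those of each *Oog* gene go both ways.

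Libraries carried a pair of index sequences, and 6 of the first indexes held oocytes of both stages (3 of *Nlrp5* +/+, 2 of *Nlrp5* +/- and 1 of *Nlrp5* -/- oocytes). Within these, *Oosp1*, whose direction was used in the staging, was higher in SN oocytes in 6 of 6, by 0.21 to 0.74 with a median of 0.53. *Oosp2* was also higher in 6 of 6, by 0.29 to 1.26 with a median of 0.69. With the offset for length and GC content the medians were 0.34 for *Oosp1* and 0.47 for *Oosp2*. Several indexes held a single oocyte of a stage, and in one of them it was oocyte 55, at the edge of its stage. The share of all genes higher in 6 of 6 was not taken. *Oog3* was higher in 4 of 6 (-0.22 to 0.68), *Oog2* in 2 of 6 (-0.53 to 0.48) and *Oog4* in 2 of 6 (-0.57 to 0.44). In the *Nlrp5* +/- oocytes *Oosp1* and *Oosp2* differed by 0.74 and 1.26 in one index and by 0.21 and 0.55 in the other, more than the 0.05 and 0.20 between all *Nlrp5* +/- oocytes. Each first index held a single genotype, so every genotype difference is also a difference between indexes, and genotypes could not be compared within an index.

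Between genotypes at NSN, *Oosp1* was lower in *Nlrp5* -/- oocytes, and the *Oog* genes overlapped. All 4 *Nlrp5* -/- values of *Oosp1*, the highest of them 7618, lay below all 4 *Nlrp5* +/+ values, the lowest of them 9721. The difference was -0.75 (mean 6576 ± 1347 against 11037 ± 1270). *Oosp2* was 2580.3, 2465, 2944 and 3451 in *Nlrp5* -/- oocytes, and its difference of -0.46 was within the overlap of the groups. *Oog2* differed by -0.25, *Oog3* by 0.12 and *Oog4* by 0.20. *Oosp1* was thus the 1 gene of 5 past the fold downwards, against 13.3% of 13833 genes, and the 1 gene apart downwards, against 3.14%. *Oosp2* was past the fold as well without *Nlrp5* +/+ oocyte 79 (-0.60). Against *Nlrp5* +/- NSN oocytes the difference was -0.78 for *Oosp1*, -0.81 for *Oosp2*, -0.51 for *Oog2*, -0.10 for *Oog3* and -0.23 for *Oog4*. Here 3 of the 5 were past the fold downwards, against 14.9% of 13856 genes, and none was apart, against 1.16%. With the offset for length and GC content these 3 were not past the fold, and *Oog2* was also under it without oocytes 13 and 14 at -0.43 (offset values of -0.36 for *Oosp1*, -0.25 for *Oosp2* and -0.26 for *Oog2*). Both comparisons use the same 4 *Nlrp5* -/- oocytes.

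*Nlrp5* -/- NSN oocytes 13 and 14 had the highest granulosa or theca sums of their group (granulosa 3472 and 4808), and oocyte 13 also had the lowest *Oosp1*. Without these oocytes the differences from *Nlrp5* +/+ were -0.62 for *Oosp1*, -0.30 for *Oosp2*, -0.17 for *Oog2*, 0.34 for *Oog3* and 0.30 for *Oog4*. Counts are relative to the other RNA of a library, so less RNA of a gene and more RNA of other genes cannot be told apart. The stroma, vessel and blood sums also differed between these groups, as given above, and theca and interstitial sums were 104–1551 in the 4 *Nlrp5* -/- NSN oocytes against 32.3–49.0 in *Nlrp5* +/+ NSN oocytes. In *Nlrp5* +/- NSN oocytes the stroma, vessel and blood sums were 402.5–626, also apart from those of *Nlrp5* -/- NSN oocytes (644–766). Their theca and interstitial sums, 52.8–2429, overlapped. The part of these marker sums in the NSN differences was not tested further.

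At SN all 5 genes had lower means in the 2 *Nlrp5* -/- oocytes than in the 6 *Nlrp5* +/+ oocytes. *Oog2* was 2032 and 2402, below all *Nlrp5* +/+ oocytes, the lowest of which was 3285, and the difference was -0.74. *Oosp1* was 11180.1 and 9921, which overlapped the lowest *Nlrp5* +/+ value of 10547, with a difference of -0.63. *Oosp2* also differed by -0.63, *Oog3* by -0.44 and *Oog4* by -0.31. Past the fold downwards were 3 of the 5 genes, against 18.7% of 13351 genes, and apart downwards was 1 of 5, against 7.85%. With the offset for length and GC content none of these 3 was past the fold (-0.08 for *Oosp1*, -0.21 for *Oosp2* and -0.26 for *Oog2*), and with pooled sums *Oosp2* was at -0.43. Theca and interstitial sums were 89.7 and 169 in these *Nlrp5* -/- oocytes and 23.6–42.6 in the *Nlrp5* +/+ oocytes, and their part in these differences was not tested. Against the 7 *Nlrp5* +/- SN oocytes the differences were -0.15 for *Oosp1*, -0.60 for *Oosp2*, -0.54 for *Oog2*, -0.39 for *Oog3* and -0.53 for *Oog4*. Again 3 of 5 were past the fold downwards (17.6% of 13331 genes) and 1, *Oog2*, was apart (5.81%). Without oocyte 7 none of these 3 was past the fold, at -0.16 for *Oosp2*, -0.42 for *Oog2* and -0.28 for *Oog4*, and without oocyte 31 they were -1.24, -0.66 and -0.82. With the offset none was past it either (-0.26, -0.08 and -0.17).

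These SN differences rested on which oocyte stood for the genotype. Against *Nlrp5* +/+, with oocyte 31 alone the differences were -0.72 for *Oosp1*, -0.20 for *Oosp2*, -0.63 for *Oog2*, -0.20 for *Oog3* and -0.06 for *Oog4*. With oocyte 7 alone they were -0.55, -1.27, -0.87, -0.71 and -0.61 in the same order. *Oosp1* and *Oog2* were past the fold with either oocyte, though not with the offset, and *Oosp2*, *Oog3* and *Oog4* were past it with oocyte 7 only.

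*Nlrp5* +/- oocytes overlapped *Nlrp5* +/+ oocytes on every gene. At NSN the differences were 0.03 for *Oosp1*, 0.35 for *Oosp2*, 0.26 for *Oog2*, 0.21 for *Oog3* and 0.42 for *Oog4*, with none past the fold, where 19.4% of 13732 genes were, and none apart, where 0.444% were. *Oog4* was past it without *Nlrp5* +/+ oocyte 78 (0.59). At SN they were -0.49, -0.03, -0.21, -0.04 and 0.22 in the same order, with none past the fold, where 10.6% of 13295 genes were, and none apart, where 0.0827% were. *Oosp1*, at the edge of the fold, was past it without *Nlrp5* +/+ oocyte 69 (-0.59). Its *Nlrp5* +/- mean at SN was 11672 ± 2358 against 16379.9 ± 4820. With stage set aside, the 7 *Nlrp5* -/- oocytes, oocyte 15 included, differed from *Nlrp5* +/+ by -0.87 for *Oosp1*, -0.81 for *Oosp2*, -0.59 for *Oog2*, -0.28 for *Oog3* and -0.07 for *Oog4*. Without oocyte 15 the values were -0.85, -0.69, -0.46, -0.16 and 0.09, and with the offset -0.41, -0.35, -0.25, 0.03 and 0.08, in the same order.

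**Figure D3:**
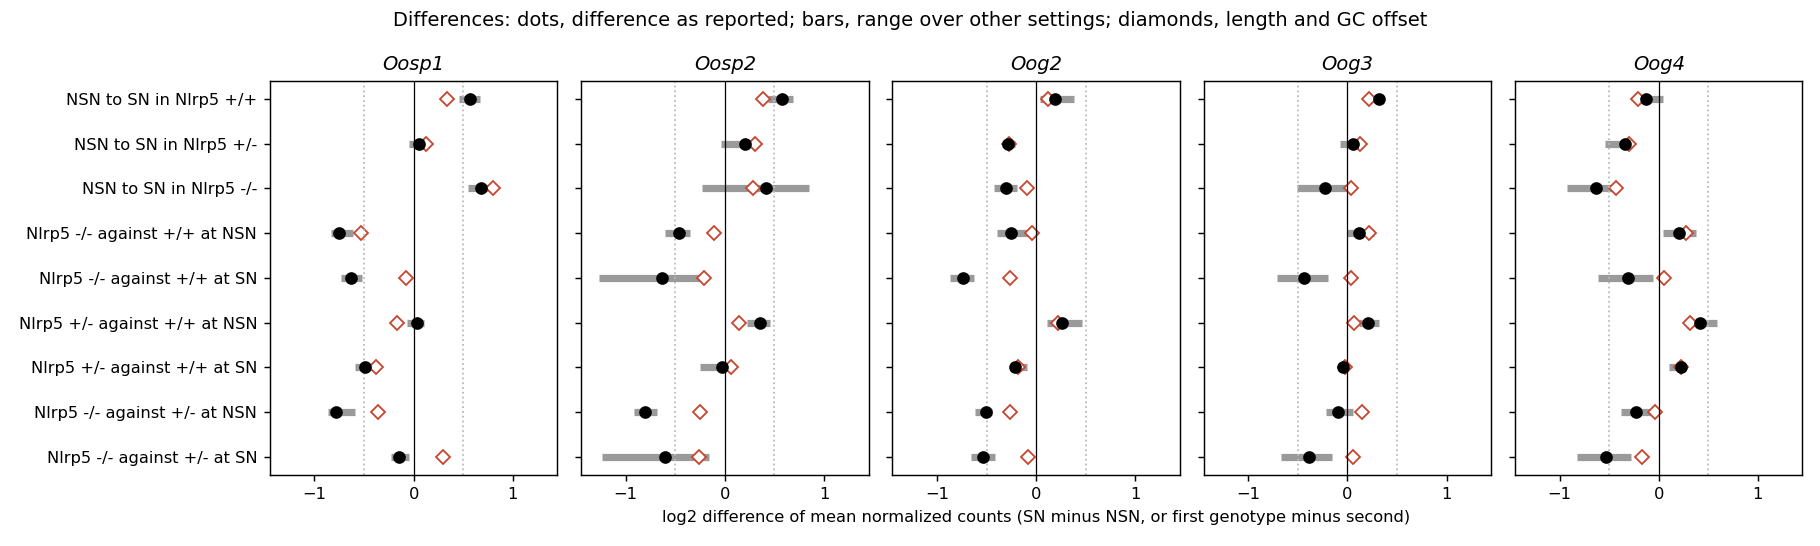
Log2 difference of mean normalised counts (x axis) of each of the 5 genes (panels) in the 9 stage and genotype comparisons (y axis), as dots, with bars for the range over other size factors, pseudocounts, pooled sums, medians and single oocytes left out, diamonds for the length and GC offset, and dotted lines at the fold of 0.5. In *Nlrp5* -/- against *Nlrp5* +/+ oocytes at SN the dots of all 5 genes lie below 0, from -0.74 for *Oog2* to -0.31 for *Oog4*, while the diamonds of *Oog3* (0.04) and *Oog4* (0.05) lie above it.

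Ordered from high to low over the 6 groups, *Oosp1* and *Oosp2* shared one order, namely *Nlrp5* +/+ SN, *Nlrp5* +/- SN, *Nlrp5* +/- NSN, *Nlrp5* +/+ NSN, *Nlrp5* -/- SN and *Nlrp5* -/- NSN. *Oog2* (means of 3899, 3708, 3245, 3214, 2734 and 2217) ran from *Nlrp5* +/- NSN through *Nlrp5* +/+ SN, *Nlrp5* +/+ NSN, *Nlrp5* +/- SN and *Nlrp5* -/- NSN to *Nlrp5* -/- SN. *Oog3* was highest in *Nlrp5* +/+ SN (12744 ± 1486) and *Oog4* in *Nlrp5* +/- NSN (11909.9 ± 3525), and both were lowest in *Nlrp5* -/- SN (9426 ± 2314 and 6557 ± 1730). Most steps in these orders were smaller than the spread between cells. Of 25 neighbouring pairs, 4 differed by more than their pooled SD and 2 were apart. The 2 apart were *Oosp1* in *Nlrp5* -/- SN above *Nlrp5* -/- NSN, and *Oog2* in *Nlrp5* -/- NSN above *Nlrp5* -/- SN. The coefficient of variation within a group reached 33.3% for *Oosp1*, 50.3% for *Oosp2*, 34.1% for *Oog2*, 35.4% for *Oog3* and 31.2% for *Oog4*.

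Across oocytes, levels of *Oosp1* and *Oosp2* went with those of other short transcripts. In each oocyte the log2 deviation of each gene from its mean over oocytes was summarised as the median over genes with transcripts under 1000 bases and a mean normalised count of at least 100. It ran from -0.58 through -0.36 to 0.11 (lowest, median, highest, log2) in *Nlrp5* -/- NSN oocytes and from -0.25 through -0.12 to 0.06 in *Nlrp5* +/+ NSN oocytes. At SN it was 0.02 and 0.26 in *Nlrp5* -/- oocytes (mean 0.14). It ran from -0.25 through 0.02 to 0.55 in *Nlrp5* +/+ SN oocytes (mean 0.11), so its mean was not lower in *Nlrp5* -/- SN oocytes. Across the 33 oocytes this measure had a Spearman correlation of 0.63 with *Oosp1* and 0.56 with *Oosp2*, the genes with the shortest transcripts, against 0.05 with *Oog2*, -0.14 with *Oog3* and -0.28 with *Oog4*. These points share library, depth and base composition.

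For the offset, transcript length and GC content were fitted together in each oocyte, and their parts were not told apart. As the fit was on log2 values, values with the offset are differences of mean log2 values and have their own values without it. For *Nlrp5* -/- against *Nlrp5* +/+ these were -0.77 at NSN and -0.58 at SN for *Oosp1*, and at SN -0.71 for *Oosp2*, -0.74 for *Oog2*, -0.45 for *Oog3* and -0.33 for *Oog4*. With the offset, *Oosp1* in *Nlrp5* -/- against *Nlrp5* +/+ oocytes differed by -0.53 at NSN and by -0.08 at SN. At SN the other offset values were -0.21 for *Oosp2*, -0.26 for *Oog2*, 0.04 for *Oog3* and 0.05 for *Oog4*. At NSN they were -0.11, -0.04, 0.22 and 0.28 in the same order. For the stage comparison in *Nlrp5* +/+ oocytes they were 0.34 for *Oosp1* (0.52 without it) and 0.38 for *Oosp2* (0.60 without it), neither past the fold, and 0.12 for *Oog2*, 0.22 for *Oog3* and -0.21 for *Oog4*. The *Oosp1* difference at NSN was the 1 genotype difference from *Nlrp5* +/+ that was still past the fold. Against *Nlrp5* +/- oocytes at SN the offset values were 0.30 for *Oosp1*, -0.26 for *Oosp2*, -0.08 for *Oog2*, 0.06 for *Oog3* and -0.17 for *Oog4*. In the stage comparison of *Nlrp5* -/- oocytes *Oosp1* differed by 0.80 with the offset, and in that of *Nlrp5* +/- oocytes the values were 0.13 for *Oosp1*, 0.30 for *Oosp2*, -0.27 for *Oog2*, 0.13 for *Oog3* and -0.30 for *Oog4*.

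**Figure D4:**
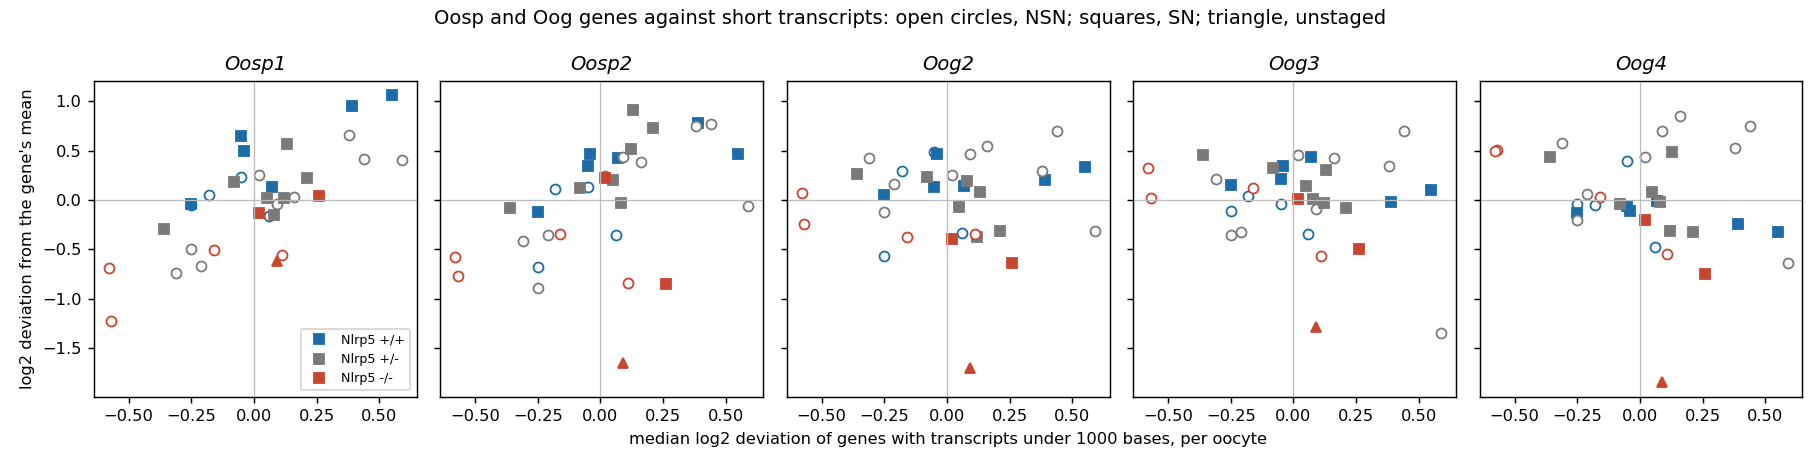
Log2 deviation of the 5 genes from their mean (y axis) against the median log2 deviation of transcripts under 1000 bases (x axis) in each of the 33 oocytes, coloured by genotype, with circles for NSN, squares for SN and a triangle for oocyte 15. *Oosp1* and *Oosp2* are higher in oocytes where short transcripts are higher (Spearman 0.63 and 0.56), and the *Oog* genes have values of 0.05, -0.14 and -0.28.

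Oocyte 15, from an *Nlrp5* -/- mouse and without a stage, had the lowest level of the 33 for *Oosp2* (1406), *Oog2* (972) and *Oog4* (2483). Its *Oog3* (4489) was above only the 4331 of oocyte 56, and its *Oosp1* (7048) was within the *Nlrp5* -/- NSN range. This was also the oocyte with the highest granulosa, theca and stroma sums, and the part of those cells in its low values was not tested.

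Relatives of the 5 genes were expressed unevenly. *Oosp3*, beside *Oosp1* on chromosome 19, had a mean of 6544 and ranked 119th, whereas *Plac1*, the placental relative on another chromosome, had a mean of 6.42. *Oosp3* was higher in SN than in NSN oocytes of *Nlrp5* +/+ mice, with all 6 SN oocytes above all 4 NSN oocytes and a difference of 1.10 (mean 9639 against 4487). At SN it was lower in *Nlrp5* -/- than in *Nlrp5* +/+ oocytes, with both oocytes below all 6 and a difference of -0.76, which was -0.01 with the offset for length and GC content. *Oog1*, on chromosome 12, had a mean of 1694.5, was higher in SN than in NSN oocytes of *Nlrp5* +/+ mice by 0.60 with the stages apart, and differed by -0.54 between *Nlrp5* -/- and *Nlrp5* +/+ SN oocytes (-0.09 with the offset). Because 94.002% of its transcript stretches occur elsewhere, among them in *Gm2042* (mean 2246), the level of *Oog1* is uncertain.

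Of 66 measured PRAME-like relatives, 20 had a mean of at least 100 and 41 had one under 10. Those at 100 or more ran from *Gm13084* (now *Pramel26*, 15811), *Gm13023* (11718), *C87977* (11401), *Gm10436* (10882), *C87414* (8985), *Gm13103* (7106) and *Pramef12* (6359) through *C87499* (3839), *Pramef20* (2483), *AA792892* (1731), *Oog1*, *Gm13089* (1103), *E330014E10Rik* (891), *D5Ertd577e* (720.0), *Gm6205* (689), *Gm6367* (615), *Gm3259* (559), *Pramef8* (367) and *Pramef17* (175) to *Gm3106* (102.5). All 66 together took a median of 1.18% of counts. In *Nlrp5* +/+ oocytes 9 of the 20 were past the fold upwards from NSN to SN and 2 downwards, beside 13.9% and 20.0% of all genes, with a median of 0.44. The same median was 0.28 in *Nlrp5* +/- oocytes (4 past the fold upwards, where 9.33% of all genes were, and 2 downwards, where 19.4% were). In *Nlrp5* -/- oocytes it was -0.32 (none upwards, where 14.3% of all genes were, and 3 downwards, where 23.8% were). With the offset for length and GC content these 3 were -0.35 (*Pramef17*), -0.61 (*D5Ertd577e*) and -1.02 (*Gm3106*). The 20 *Nlrp5* -/- stage differences then lay on both sides of 0, up to 0.29 for *Gm3259*. In *Nlrp5* -/- against *Nlrp5* +/+ oocytes the median of the 20 was 0.19 at NSN and -0.45 at SN. At SN 8 of the 20 were past the fold downwards and 7 were apart downwards, beside the same shares of all genes given above, 18.7% and 7.85%. With the offset for length and GC content these 8 were -0.68 for *Gm13023*, -0.62 for *Pramef8* and -0.50 for *Pramef17*, and the other 5 lay between -0.34 (*Gm13089*) and -0.09 (*Oog1*). The SN differences of the 20 then lay on both sides of 0, from -0.68 for *Gm13023* to 0.50 for *E330014E10Rik*. Stretches shared between these copies are counted in ways that are not stated.

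The chromosome 4 cluster mixed abundant copies with copies near 0. Of 29 genes from *Pramel1* to *Pramef12*, 12 had a mean of at least 100 and 15 a mean under 10. *Oog3* began 712.3 kb and *Oog2* 740.4 kb from *Oog4*. *Oog3* lay between *Gm13102*, at 0, and *Oog2*. *Oog4* lay between *Pramef8*, at 367, and *Gm13043*, at 0. On chromosome 19 the 3 *Oosp* genes (*Oosp2* at -30.6 kb and *Oosp3* at 5.9 kb from the start of *Oosp1*) were the only genes of 7 with a mean of at least 100.

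**Figure D5:**
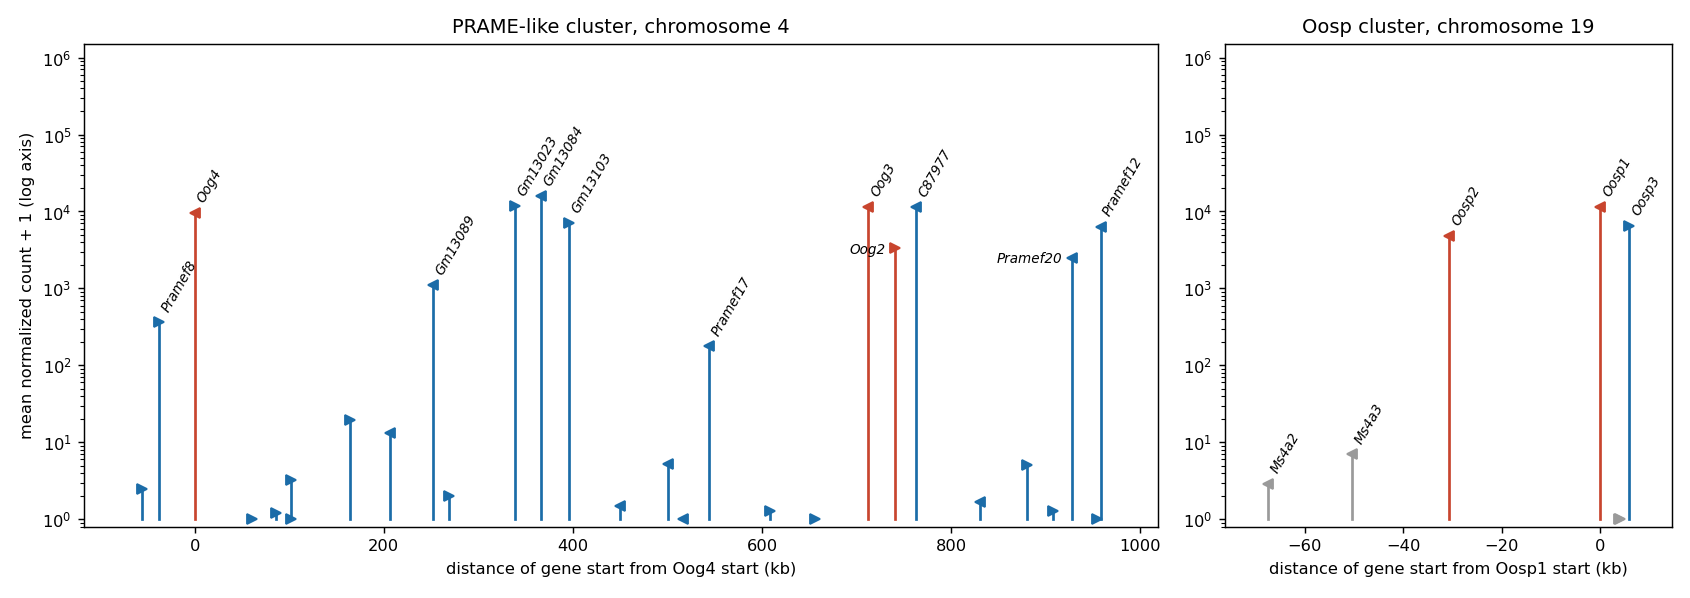
Mean normalised count over 33 oocytes (y axis, log scale) of the genes around *Oog4* on chromosome 4 and around *Oosp1* on chromosome 19, by distance between gene starts in kb (x axis), with arrows for the strand, 1 added to each mean, and the 5 genes in red. The 12 genes of the chromosome 4 cluster at 100 or more lie in short runs among 15 under 10, and the 3 *Oosp* genes stand above their neighbours.

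The genes of each family varied together between oocytes, and *Oosp2* also varied with part of the *Oog* genes. Over the 33 oocytes *Oosp1* and *Oosp2* had a Spearman correlation of 0.79, and *Oog2*, *Oog3* and *Oog4* had correlations between 0.60 and 0.67 with each other. Across the families the values ran from -0.07 for *Oosp1* and *Oog4* to 0.50 for *Oosp2* and *Oog2*, with 0.48 for *Oosp2* and *Oog3* and 0.40 for *Oosp1* and *Oog2*. The split was weaker by Pearson correlation of log2 values, at 0.65 for *Oosp2* and *Oog2* and 0.59 for *Oosp2* and *Oog3*. It was also weaker with the relatives, as *Oosp3* had Spearman values of 0.55 with *Oog3* and 0.57 with *Oog1*, and *Oog2* had 0.48 with *Oog1*. Values for random pairs of genes were not taken. Sequence similarity ran differently. The transcripts of *Oog3* and *Oog4* were 74.9% identical, those of *Oog2* and *Oog3* 66.2% and those of *Oog2* and *Oog4* 62.9%, but *Oosp1* and *Oosp2* reached only 48.7%, beside 41.8% for the unrelated *Oosp1* and *Oog4*.

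Among genes with a mean of at least 100, *Plac8* (Spearman 0.92), *Mrps33* (0.89), which encodes a mitochondrial ribosomal protein, and *Magoh* (0.85), of the exon junction complex, were most like *Oosp1* over the 33 oocytes. *Gm32442* (0.96), *Ndufaf4* (0.91), an assembly factor of respiratory complex I, and *Smim8* (0.91) were most like *Oosp2*. *Vdac3* (0.83), a mitochondrial channel, *Cops3* (0.82), of the COP9 signalosome, and the PRAME-like *C87977* (0.81) were most like *Oog2*. *Tank* (0.85), *Srgn* (0.83) and *Rap1a* (0.83) were most like *Oog3*, and *Ndfip1* (0.90), *Dynlt3* (0.87) and *Arl1* (0.86) were most like *Oog4*. A correlation of at least 0.8 was reached by 30 genes for *Oosp1*, 39 for *Oosp2*, 5 for *Oog2*, 6 for *Oog3* and 18 for *Oog4*. These are descriptions over oocytes whose values share library, depth and base composition.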

How the data were processed

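RNA was measured in 33 single mouse GV oocytes. Per the submitters' notes and the study's methods, the authors used Trim Galore for trimming, HISAT2 for alignment and SeqMonk to count reads per gene, and the deposited values are raw counts. The notes name GRCm38 and the methods GRCm39, and the gene coordinates of the deposited report are those of GRCm38. Versions, strand and the treatment of reads with several matches are not given in the sources used here. The study left out libraries under 4000000 reads. The authors' tables of fold changes and adjusted p-values and their table of read totals were not used.

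Of 35373 entries, 52 repeats were left out. Genotype came from the labels. Stage is not in the labels and was read from the study's own staging figures (made with a list of marker genes), which leave oocyte 15 without one. Oocytes 55 and 61 lay at the edge of their stage. Counts were divided by size factors (median of ratios over all 33 oocytes). Differences are log2 ratios of group means, with a pseudocount of 1, over genes with a mean normalised count of at least 10. Background shares are over those genes. As labels name no mouse, no test was made. Exact Poisson and binomial 95% intervals cover counting error only. Depth was 4223595 to 15573360 counts per oocyte.

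The 5 genes, the relatives, the marker lists and the rule for named genes (the 5 genes, relatives with a mean of at least 100, and the 3 genes most like each by Spearman correlation) were chosen with earlier results of these data known. Alternatives were other size factors (total count, TMM), a pseudocount of 5, other minimum counts, pooled sums, means of log2 values, medians over oocytes, stage set aside, each oocyte left out, and 2 chosen after seeing the data (an offset for length and GC content, and NSN comparisons without oocytes 13 and 14). Lengths, GC content, shared 75-base stretches and identities came from GENCODE transcripts (GRCm39), and 29 of 8436 genes with a mean of at least 100 had no match. Promoters came from RefSeq (GRCm38.p6), and all 5 genes matched. Calculations were tested on simulated data. TMM factors came from edgeR 4.0.16 in R 4.3.3, identities from biopython 1.88, figures from matplotlib 3.10.9, and all else from scipy 1.17.1, pandas 2.3.3 and numpy 2.4.6 under Python 3.11.15.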

Additional observations from a re-analysis of the deposited data

Results flagged for a closer look

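In 3 of 30 pairs of stage or genotype differences, every oocyte of a group lay on one side of the mean it was compared with, and every oocyte of another group lay on the opposite side. The share of all genes that meet this rule was not taken, and a group as small as the *Nlrp5* -/- SN oocytes meets it easily. For *Oog2*, all 6 SN oocytes of *Nlrp5* +/+ mice lay above the NSN mean (log2 difference 0.19), whereas all 7 SN oocytes of *Nlrp5* +/- mice lay below theirs (-0.28), as did both SN oocytes of *Nlrp5* -/- mice (-0.30). The *Nlrp5* +/+ difference was 0.04 without NSN oocyte 79 and ran up to 0.38 without another, and the *Nlrp5* -/- difference was -0.09 with the offset for length and GC content. For *Oog3*, the difference was 0.32 in *Nlrp5* +/+ and -0.23 in *Nlrp5* -/- oocytes, where oocyte 31 (11062) lay just under the NSN mean (11086.0). The latter difference was 0.04 with the offset and 0.00 without oocyte 7. Whether these differences differ between genotypes was not tested. No oocyte stood far from the rest of its group for any of the 5 genes in 25 groups examined by Dixon's ratio.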

How the results depend on the processing

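Each of the 9 stage and genotype comparisons was repeated with other size factors, a pseudocount of 5, pooled sums, means of log2 values, medians over oocytes, an offset for length and GC content and without single oocytes, those with *Nlrp5* +/- oocytes also without oocytes 55 and 61, and the 6 genotype comparisons also with stage set aside. The median over the 5 genes changed sign where it was small, as for the stages in *Nlrp5* +/- oocytes (0.05, and -0.08 with medians over oocytes), and in *Nlrp5* -/- oocytes from -0.23 to 0.04 with the offset for length and GC content. The median for *Nlrp5* -/- against *Nlrp5* +/+ at SN, -0.63, was -0.43 with pooled sums and -0.08 with the offset, and ran from -0.72 to -0.20 with each oocyte left out, the latter without oocyte 7. Against *Nlrp5* +/- at SN, -0.53 became -0.08 with the offset and ran from -0.67 to -0.23. The NSN median of -0.25 against *Nlrp5* +/+ was -0.59 with stage set aside, -0.04 with the offset, and between -0.40 without oocyte 79 and -0.05 without oocyte 78. The cause was not tested. The minimum mean count set only the background shares, such as the 18.7% of genes past the fold downwards in *Nlrp5* -/- against *Nlrp5* +/+ oocytes at SN, which was 25.7% over all genes with at least 1 count and 15.6% with a minimum of 100. Counted with the stage-aside and within-index repeats, 1481 values by gene moved by less than the spread between oocytes and 29 by more. Leaving out 1 oocyte seldom moves a mean that far, so these counts do not show whether a fold call held. In *Nlrp5* -/- against *Nlrp5* +/+ oocytes at SN, 1, 3, 1, 3 and 4 of 17 values moved by more (*Oosp1*, *Oosp2*, *Oog2*, *Oog3*, *Oog4*). Against *Nlrp5* +/- at SN, 2, 1, 1, 2 and 1 of 19 did. No paired analysis was possible because the labels give no replicate number shared across groups, and the first index shared by some NSN and SN oocytes gave the within-index values of the report. Depth was not limiting, since the lowest summed count of a gene in a group was 4825, with an exact interval reaching 2.86% above it.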
